A study of Mus musculus with 12 samples.

Results

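The Krüppel-like factors are zinc finger transcription factors, and 10 of their genes were followed here through the RNA of the mouse striatum: *Klf2*, *Klf4*, *Klf5*, *Klf6*, *Klf7*, *Klf9*, *Klf10*, *Klf13*, *Klf15* and *Klf16*. They were taken by gene symbol from the 52169 symbols of the deposited transcript table, in which they have 53 transcripts, and each gene is described by its transcript with the highest mean level over the 12 libraries. All 10 genes were tested in every comparison. The mice were C57BL/6J, and every mouse carried a dopamine lesion of the right hemisphere, made with 1 µl of 6-OHDA (3 µg/µl) in the medial forebrain bundle after 25 mg/kg desipramine, which spares noradrenergic neurons. Every mouse also received L-DOPA, the precursor of dopamine, after 2 weeks of recovery. The dose was 10 mg/kg with 7.5 mg/kg benserazide, injected intraperitoneally on 1 day (acute) or on each of 9 days (chronic), and the tissue was taken 1 hour after the last injection. Striatal punches of the lesioned and of the unlesioned side gave the 4 groups, acute unlesioned, acute lesioned, chronic unlesioned and chronic lesioned, with 3 libraries each. All 12 libraries came from lesioned mice given L-DOPA. With them an effect of the lesion and a response to L-DOPA cannot be told apart. By RT-qPCR, the study reported more *Klf4* mRNA in the lesioned striatum after L-DOPA than in its saline controls. After the same 2 weeks of recovery, chronic mice had more injections and a later end point than acute mice. Repeated L-DOPA, handling and time since the lesion therefore cannot be told apart in comparisons of the treatments. The bulk tissue holds many cell types, and a change in the number of cells of a type and a change in the RNA per cell cannot be told apart either.

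Krüppel-like factors bind GC-rich sites and CACCC boxes in promoters through zinc fingers at their carboxy-terminal end, and differ in the amino-terminal part that recruits activators or repressors. In neurons several of them follow activity or hormones, and members with opposite effects on the outgrowth of axons are known. *Klf2* and *Klf4* are close relatives with roles in endothelium and in pluripotency, *Klf5* promotes proliferation, and *Klf6* and *Klf7* support axon growth. *Klf9* is induced by thyroid hormone and glucocorticoids, *Klf10* was found as an early gene of TGF-beta signaling, *Klf15* is a glucocorticoid and clock target in metabolism, and *Klf13* and *Klf16* are repressors that recruit Sin3a.

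The libraries held 87695043 to 173116525 counts over all transcripts, in which a read counts on every transcript that it overlaps. Levels are given in CPM, the counts scaled to the TMM-normalized total of the library. The lowest count behind any level of the 10 genes was 106, for *Klf4* in chronic unlesioned replicate 1. Medium spiny neuron markers summed to between 1835 and 2599 CPM across the libraries, but single markers moved with the lesion: after acute L-DOPA 4 of 10 were higher and 5 lower, with *Drd1a* at 66.6 ± 3.5 CPM (SD, n = 3) on the unlesioned and 13.5 ± 2.0 CPM on the lesioned side and *Penk* at 352 ± 29 and 674 ± 36 CPM, and after chronic L-DOPA 3 were higher and 1 lower. Markers of cortical glutamatergic neurons, which should be low, summed to between 15.4 and 32.7 CPM in the acute unlesioned, 5.0 and 18.7 in the acute lesioned, 8.5 and 45.1 in the chronic unlesioned and 4.4 and 25.7 in the chronic lesioned libraries. Their median log2 fold change between the sides was -1.35 after acute (*Neurod6* called lower and *Cux2* higher, of 7) and -1.58 after chronic L-DOPA (0 of 6 called in edgeR). Among 6 astrocyte markers *Gfap* was higher on the lesioned side under both treatments (log2 fold changes 1.25 and 1.96) and *Gja1* after acute L-DOPA (0.40), and among 8 microglial markers *C1qa* (0.47), *C1qb* (0.29) and *Tmem119* (0.28) were higher after acute L-DOPA and 0 were called after chronic L-DOPA. Oligodendrocyte markers summed to 2089 to 2326 CPM in the acute unlesioned, 2114 to 3496 in the acute lesioned, 1563 to 2234 in the chronic unlesioned and 1162 to 2098 in the chronic lesioned libraries. All 6 had a log2 fold change above 0 between the sides after acute L-DOPA (median 0.31), of which *Mag* was called (0.30, adjusted p = 0.0451 in edgeR), and the median after chronic L-DOPA was -0.22. The part of these cell types in the members' lesion effects was not tested, except by fits with the cortical or the oligodendrocyte marker sum as a covariate, settings chosen after seeing the data. With the cortical sum the called effects were 1.02 for *Klf2*, 1.82 for *Klf4* and -1.34 for *Klf5* after acute, and 0.89 for *Klf2*, 1.51 for *Klf4*, 1.08 for *Klf5*, 0.55 for *Klf9* and 1.99 for *Klf10* after chronic L-DOPA, all still called, with *Klf6* after acute (0.55) and *Klf15* after chronic L-DOPA (-0.42) called in addition. With the oligodendrocyte sum the same members stayed called, at 1.07 for *Klf2*, 1.64 for *Klf4* and -0.90 for *Klf5* after acute, and at 1.31 for *Klf2*, 1.67 for *Klf4*, 0.92 for *Klf5*, 0.37 for *Klf9* and 1.70 for *Klf10* after chronic L-DOPA, and *Klf9* (0.34) and *Klf10* (0.44) were called after acute L-DOPA in addition. Replicate 2 of the chronic unlesioned group stood apart: without it, edgeR called 14377 transcripts between the chronic and acute unlesioned striatum, against 3366 with it.

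Scaled by transcript length, the 10 genes covered a wide range and *Klf9* led in every group, with 45.9% of the members' summed level in the acute unlesioned and 49.3% in the chronic lesioned striatum. Its level was 20.6 CPM per kilobase in the acute unlesioned and 28.9 CPM per kilobase in the chronic lesioned group. *Klf16* and *Klf13* followed in all 4 groups. In the unlesioned striatum *Klf15* came next, and *Klf4* was lowest, with 0.478 CPM per kilobase after acute and 0.388 after chronic L-DOPA. The libraries of *Klf5*, *Klf2*, *Klf10*, *Klf6* and *Klf7* overlapped with those of their neighbors in this order in the acute unlesioned striatum, so the order of neighbors was not resolved, while each *Klf5* and each *Klf2* library lay above those of *Klf7*. The lesioned striatum had another order below the third rank. After acute L-DOPA *Klf2* stood just below *Klf15* at 2.98 CPM per kilobase and *Klf5* was last at 0.786. After chronic L-DOPA *Klf10* at 4.15 and *Klf5* at 3.41 CPM per kilobase stood above *Klf15* at 2.48, and the libraries of *Klf10* overlapped with those of both *Klf13* and *Klf5*. The plot of length-scaled levels shows these shifts.

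**Figure D1:**
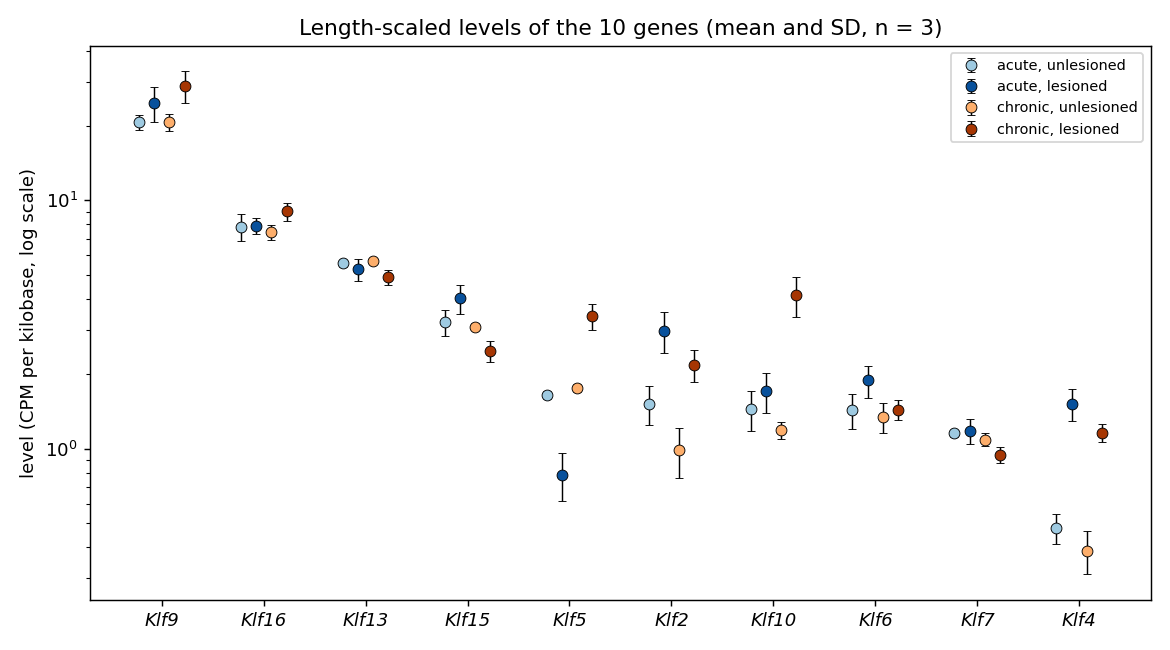
Length-scaled levels (CPM per kilobase, log axis) of the 10 genes, ordered by their level in the acute unlesioned striatum; points are group means and bars the SD of 3 libraries. *Klf9* lies above all others in every group, and *Klf5* runs from 0.786 CPM per kilobase in the acute lesioned to 3.41 in the chronic lesioned striatum.

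To ask which members responded, the groups were compared on counts with edgeR's quasi-likelihood test, fitted over all transcripts. A member was called at a Benjamini-Hochberg adjusted p under 0.05. These fits did not pair the 2 sides, and fits with the replicate number as a block are given further below. Beside each count stands the share called among the genes with a mean of at least 1 CPM, each by its top transcript. With the lesioned set against the unlesioned side after acute L-DOPA, 2 members were higher (*Klf2*, *Klf4*) and 1 lower (*Klf5*), where 9.41% of 12797 genes were higher and 10.5% lower. The median log2 fold change of the 10 members was 0.25, against -0.01 over those genes. After chronic L-DOPA, 5 members were higher (*Klf2*, *Klf4*, *Klf5*, *Klf9*, *Klf10*) and 0 lower, where 10.4% of 12796 genes were higher and 6.89% lower, and the median was 0.39 against -0.02. Between chronic and acute L-DOPA in the lesioned striatum, 2 members were higher (*Klf5*, *Klf10*) and 5 lower (*Klf2*, *Klf4*, *Klf6*, *Klf7*, *Klf15*), where 16.0% of genes were higher and 15.5% lower. These 3 comparisons share libraries and are not independent of each other. The plot of lesion effects sets the first 2 comparisons side by side.

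**Figure D2:**
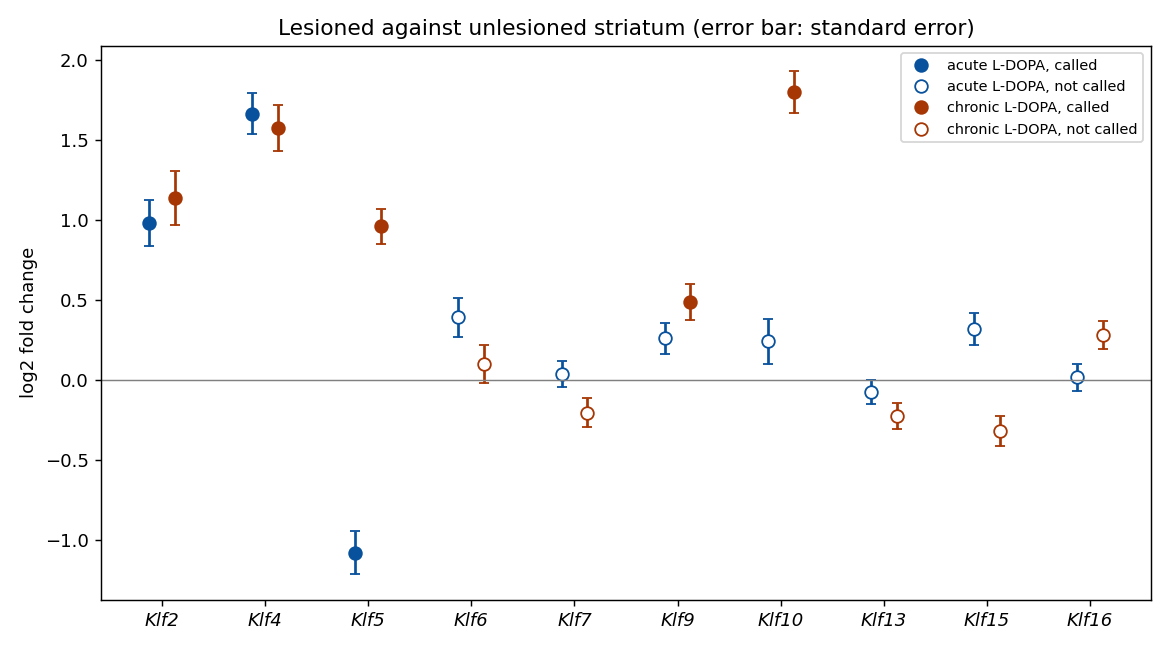
Log2 fold changes of the 10 genes in the lesioned against the unlesioned striatum, after acute (blue) and chronic (brown) L-DOPA; bars are standard errors (SE) and filled points were called. *Klf2* and *Klf4* lie above 0 in both comparisons, *Klf5* moves from -1.08 to 0.96, and *Klf10* is at 1.80 after chronic L-DOPA.

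*Klf2* and *Klf4* rose on the lesioned side under both treatments. *Klf4*, a factor best known for keeping stem cells undifferentiated, lies on the minus strand of chromosome 4 in mm9, from 55540009 to 55545347, and its top transcript NM_010637 has 5 exons. Its level was 1.60, 1.22 and 1.54 CPM in the acute unlesioned libraries and 5.01, 3.82 and 4.97 CPM in the acute lesioned libraries (replicates 1 to 3). Chronic unlesioned libraries had 0.976, 1.44 and 1.13 CPM, and chronic lesioned libraries 3.60, 3.77 and 3.21 CPM. Every lesioned library lay above every unlesioned library, and the difference was 3.17-fold after acute L-DOPA (log2 fold change 1.67, SE, the standard error, 0.13; edgeR quasi-likelihood adjusted p = 4.71e-06 with Benjamini-Hochberg adjustment) and 2.98-fold after chronic L-DOPA (1.58, SE 0.15, adjusted p = 5.57e-05 in the same edgeR test). When single libraries were omitted, the effect stayed between 1.56 and 1.78 after acute and between 1.46 and 1.74 after chronic L-DOPA, and each of these fits called it.

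*Klf2*, which keeps endothelium and lymphocytes quiescent, lies on the plus strand of chromosome 8 from 74842961 to 74845553 (NM_008452, 3 exons). The acute unlesioned libraries held 3.03, 2.18 and 3.04 CPM and the acute lesioned libraries 5.36, 4.42 and 6.46 CPM. After chronic L-DOPA the unlesioned libraries held 1.54, 2.27 and 1.57 CPM and the lesioned libraries 3.31, 4.46 and 4.03 CPM. The sides did not overlap under either treatment, and the lesioned side was 1.97-fold higher after acute (log2 fold change 0.98, SE 0.14, adjusted p = 0.00102 in edgeR's quasi-likelihood test) and 2.20-fold higher after chronic L-DOPA (1.14, SE 0.17, adjusted p = 0.00142 in edgeR). Endothelial markers summed to 32.8 to 38.3 CPM in the acute unlesioned and 35.4 to 44.5 CPM in the acute lesioned libraries, and 0 of 10 passed the test (*Cdh5* and *Cldn5* were at 2.53 and 4.11 CPM in the unlesioned, and 3.17 and 4.38 CPM in the lesioned group). Their log2 fold changes lay above 0, between 0.04 (*Emcn*) and 0.33 (*Cdh5*), with a median of 0.14. After chronic L-DOPA the sums were 30.6 to 43.4 and 38.1 to 44.5 CPM, and 1 of 10 (*Egfl7*, log2 fold change 0.61) passed. The values then lay between 0.0028 (*Flt1*) and 0.61, with a median of 0.14. The part of these cells in the rise of *Klf2* and *Klf4* was not tested. The difference of the lesion effects between chronic and acute L-DOPA was 0.16 (SE 0.25, adjusted p = 0.775 in edgeR) for *Klf2* and -0.09 (SE 0.21, adjusted p = 0.868 in edgeR) for *Klf4*.

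In the lesioned striatum *Klf2* and *Klf4* were called lower after chronic than after acute L-DOPA, calls that did not hold with the oligodendrocyte markers as a covariate. The log2 fold change of chronic against acute L-DOPA on this side was -0.46 for *Klf2* (SE 0.14, adjusted p = 0.0411 in edgeR) and -0.39 for *Klf4* (SE 0.12, adjusted p = 0.0392 in edgeR). With the covariate, a setting chosen after seeing the data, neither was called, at -0.39 for *Klf2* (adjusted p = 0.395 in edgeR) and -0.30 for *Klf4* (adjusted p = 0.447 in edgeR). The oligodendrocyte sums of the acute lesioned and chronic lesioned libraries did not overlap, so this fit cannot separate the covariate from the treatment. In the same comparison 6 of 6 oligodendrocyte and 6 of 8 microglial markers were lower. Of 9 fits in other settings, this one included, 4 called *Klf2* and 6 called *Klf4*. In the unlesioned striatum, without a covariate, the log2 fold change was -0.62 for *Klf2* (SE 0.17, adjusted p = 0.0738 in edgeR) and -0.30 for *Klf4* (SE 0.16, adjusted p = 0.299 in edgeR), neither of which was called. Without replicate 2 of the chronic unlesioned group, the unlesioned *Klf2* difference was -0.83 and was called. With the same covariate the unlesioned differences were -0.32 for *Klf2* and -0.03 for *Klf4*, and neither was called. On the unlesioned side 3 of 8 microglial markers (*C1qa*, *C1qb* and *Tmem119*) and 2 of 6 astrocyte markers (*Gja1* and *Aqp4*) were lower after chronic L-DOPA, and the median of the oligodendrocyte markers was -0.20. The lesioned calls of *Klf2* and *Klf4* were each kept in 2 of 6 fits that left out a library, those without acute lesioned replicate 2 and without chronic lesioned replicate 2.

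The start regions of *Klf2* and *Klf4* are shown because both genes rose on the lesioned side under both treatments, and that of *Klf15* because its lesion effect differed between the treatments. RefSeq windows of build GRCm38.p6, from 250 bases before to 50 bases after the start of the gene, were found for 7 of the 10 members and not for *Klf5*, *Klf10* and *Klf16*. Capitals mark the letters of the CRE core TGACG, the GC box GGGCGG, the E-box CACGTG, the Egr motif GCGNGGGCG and the MEF2 motif, searched on both strands. The windows are *Klf2* at chr8:72318812-72319111 on the plus strand, *Klf4* at chr4:55532426-55532725 on the minus strand and *Klf15* at chr6:90462326-90462625 on the plus strand, each read 5′ to 3′ along the gene.
Klf2: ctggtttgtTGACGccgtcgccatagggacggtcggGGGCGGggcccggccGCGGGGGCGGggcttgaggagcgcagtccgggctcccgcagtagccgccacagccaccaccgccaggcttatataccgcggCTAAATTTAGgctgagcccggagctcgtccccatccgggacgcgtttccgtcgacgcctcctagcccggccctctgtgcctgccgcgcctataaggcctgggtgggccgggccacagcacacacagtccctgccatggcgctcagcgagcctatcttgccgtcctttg
Klf4: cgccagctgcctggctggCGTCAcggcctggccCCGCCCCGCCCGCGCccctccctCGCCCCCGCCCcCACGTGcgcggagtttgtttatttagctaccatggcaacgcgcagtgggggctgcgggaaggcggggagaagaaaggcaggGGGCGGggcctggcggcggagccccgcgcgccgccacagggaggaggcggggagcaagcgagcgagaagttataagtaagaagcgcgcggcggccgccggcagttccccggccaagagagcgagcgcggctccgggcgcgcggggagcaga
Klf15: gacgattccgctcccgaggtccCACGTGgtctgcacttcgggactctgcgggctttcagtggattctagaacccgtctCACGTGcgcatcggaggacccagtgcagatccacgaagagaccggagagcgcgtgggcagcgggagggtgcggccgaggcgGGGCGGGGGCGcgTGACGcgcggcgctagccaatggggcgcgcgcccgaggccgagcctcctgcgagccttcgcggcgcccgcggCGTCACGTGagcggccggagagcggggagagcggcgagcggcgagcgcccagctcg
The 3 windows were GC-rich, with 69.3% G or C for *Klf2*, 74.3% for *Klf4* and 73.3% for *Klf15*, against a median of 52.7% over all 32851 windows of the table. Each held the CRE core, the GC box and the Egr motif, and in each an Egr motif shared letters with a GC box; the CRE core nearest the start of *Klf15* also shared letters with an E-box. Over the 7 members the CRE core was in 5 windows (20.8% of all windows), the GC box in 6 (35.7%), the E-box in 3 (7.15%) and the Egr motif in 3 (5.55%). The MEF2 motif was in 1, the window of *Klf2* (3.19% of all windows), 118 bases before the start. The full CRE, which extends the core by TCA, and the CArG box were in 0 of the 7 windows, against 1.79% and 1.63% of all windows. These are matches of letters, and binding was not measured here.

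*Klf5* fell on the lesioned side after acute L-DOPA and rose there after chronic L-DOPA. This driver of proliferation, on the plus strand of chromosome 14 from 99697910 to 99712631 (NM_009769, 4 exons), was at 2.87, 2.74 and 2.92 CPM in the acute unlesioned and at 1.03, 1.61 and 1.43 CPM in the acute lesioned libraries. The chronic unlesioned libraries held 3.09, 2.90 and 3.08 CPM, close to the acute unlesioned ones, and the chronic lesioned libraries 6.67, 5.78 and 5.23 CPM. All acute lesioned libraries were below, and all chronic lesioned libraries above, the 6 unlesioned libraries. The log2 fold change of the lesion was -1.08 (SE 0.14, adjusted p = 0.000318 in edgeR's quasi-likelihood test) after acute and 0.96 (SE 0.11, adjusted p = 0.000224 in edgeR) after chronic L-DOPA. The difference of these effects, tested as an interaction over the 12 libraries, was 2.04 (SE 0.18, adjusted p = 7.87e-06 in edgeR). In the lesioned striatum alone *Klf5* was 4.39-fold higher after chronic than after acute L-DOPA (log2 fold change 2.13, SE 0.15, adjusted p = 8.22e-06 in edgeR). In the unlesioned striatum the same difference was 0.09 (SE 0.08, adjusted p = 0.565 in edgeR). All 12 fits without a library called the interaction, with values from 1.86 to 2.18.

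*Klf10* rose on the lesioned side after chronic L-DOPA, and its lesion effect differed between the treatments. The gene, also named TGF-beta inducible early gene, lies on the minus strand of chromosome 15 from 38224168 to 38230462 (NM_013692, 4 exons). Its level was 4.63, 3.48 and 5.02 CPM in the acute unlesioned, 4.21, 5.19 and 6.12 CPM in the acute lesioned, and 3.59, 3.33 and 3.92 CPM in the chronic unlesioned libraries. The chronic lesioned libraries held 15.3, 11.4 and 11.2 CPM, above each of the other 9. The lesion effect was 3.49-fold after chronic L-DOPA (log2 fold change 1.80, SE 0.13, adjusted p = 9.69e-06 in edgeR's quasi-likelihood test), whereas after acute L-DOPA the sides overlapped (0.24, SE 0.14, adjusted p = 0.294 in edgeR). The acute value varied with the setting: it was 0.10 without acute lesioned replicate 3 or without acute unlesioned replicate 2, 0.38 without acute lesioned replicate 1 and 0.04 with the cortical covariate, none of them called, and it was called at 0.44 with the oligodendrocyte covariate (adjusted p = 0.0310 in edgeR). The interaction was 1.56 (SE 0.22, adjusted p = 0.000745 in edgeR). Chronic against acute L-DOPA in the lesioned striatum gave 1.29 (SE 0.15, adjusted p = 0.000232 in edgeR), and with the oligodendrocyte markers as a covariate, a setting chosen after seeing the data, 0.85 (adjusted p = 0.0105 in edgeR).

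**Figure D3:**
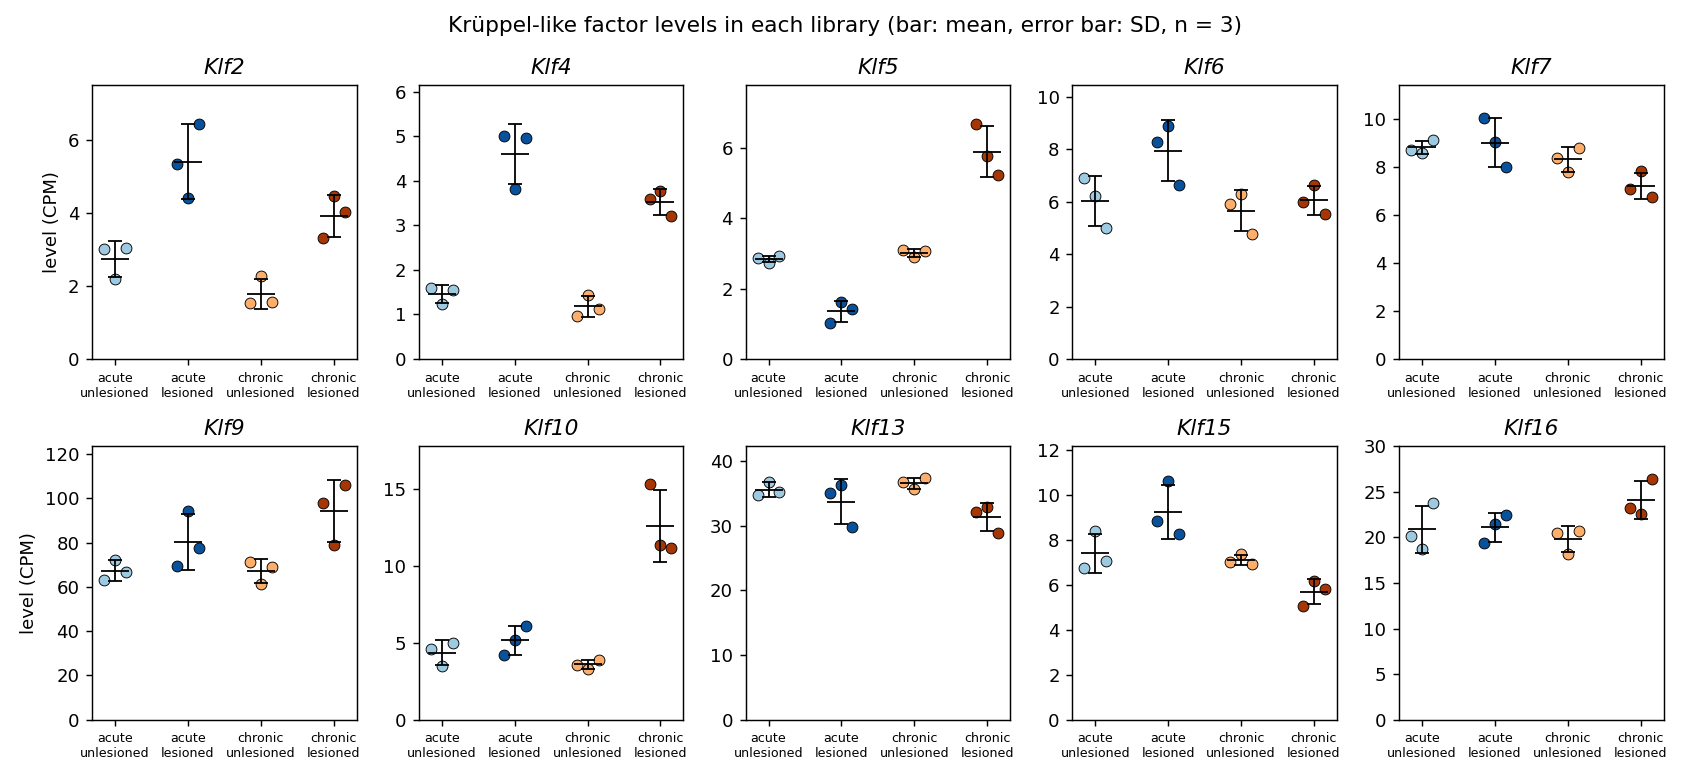
Levels (CPM) of the 10 genes in each of the 12 libraries; every panel starts at 0, points are libraries in replicate order, and bars give the mean and SD of 3. The acute lesioned libraries of *Klf5* are the lowest and its chronic lesioned libraries the highest, and *Klf10* stands out in the chronic lesioned group with 11.2 to 15.3 CPM.

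*Klf15* and *Klf9*, genes that follow glucocorticoids in many tissues, moved by less. *Klf15* is on the plus strand of chromosome 6 from 90412620 to 90425203 (NM_023184, 3 exons). It stood at 6.76, 8.38 and 7.05 CPM in the acute unlesioned and at 8.82, 10.6 and 8.26 CPM in the acute lesioned libraries, which overlapped. It was at 7.0, 7.35 and 6.91 CPM in the chronic unlesioned libraries and at 5.07, 6.15 and 5.82 CPM in the chronic lesioned libraries, all of which lay lower. Without pairing of the sides neither lesion effect was called, with 0.32 after acute (SE 0.10, adjusted p = 0.0588 in edgeR) and -0.32 after chronic L-DOPA (SE 0.09, adjusted p = 0.0540 in edgeR). With the replicate number as a block both effects were called (adjusted p = 0.00118 and 0.0127 in edgeR). The difference between the effects was called, at -0.63 (SE 0.15, adjusted p = 0.0239 in edgeR's quasi-likelihood test), as was the fall from acute to chronic L-DOPA in the lesioned striatum, at -0.69 (SE 0.11, adjusted p = 0.00149 in edgeR). Both calls were lost with the oligodendrocyte markers as a covariate, a setting chosen after seeing the data, at -0.54 for the difference (adjusted p = 0.0706 in edgeR) and -0.53 for the fall (adjusted p = 0.0977 in edgeR). Oligodendrocyte markers were lower in the latter comparison, among them *Mbp* (-0.85). There the marker sums of the 2 groups did not overlap, so the fit of the fall cannot separate the covariate from the treatment. The call of the difference was lost in 4 of 12 fits without a library: at -0.57 without acute unlesioned replicate 1, -0.60 without acute unlesioned replicate 3, -0.53 without acute lesioned replicate 2 and -0.56 without chronic lesioned replicate 1.

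*Klf9*, the most abundant member, is on the plus strand of chromosome 19 from 23215716 to 23241401 (NM_010638, 2 exons). It held 62.9, 72.2 and 66.6 CPM in the acute unlesioned and 69.3, 94.2 and 77.6 CPM in the acute lesioned libraries, where the sides overlapped. After chronic L-DOPA the unlesioned libraries held 71.3, 61.2 and 68.9 CPM and the lesioned libraries 97.9, 78.8 and 105.9 CPM, without overlap. The lesion effect was 0.26 after acute (SE 0.10, adjusted p = 0.102 in edgeR) and 0.49 after chronic L-DOPA (SE 0.11, adjusted p = 0.0182 in edgeR's quasi-likelihood test), and the difference of the effects was 0.23 (SE 0.17, adjusted p = 0.485 in edgeR). The acute effect was 0.13 without acute lesioned replicate 2, 0.05 with the cortical covariate, and called at 0.36 without acute lesioned replicate 1 and at 0.34 with the oligodendrocyte covariate, settings of which both covariates were chosen after seeing the data. The acute effect was also called with the replicate number as a block (0.25, adjusted p = 0.00794 in edgeR). The chronic call was lost without chronic unlesioned replicate 3 (0.51), without chronic lesioned replicate 1 (0.46) and without chronic lesioned replicate 3 (0.40). The first bases of *Klf9* overlap the antisense transcript AK046642 of *Gm9971* (minus strand, 23214601 to 23216876), which had a mean of 21.8 CPM and log2 fold changes of 0.39 and 0.56 in the same 2 comparisons. Whether the counting used the strand is not stated, so reads of the pair cannot be told apart.

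The axon growth factors *Klf6* and *Klf7* and the repressors *Klf13* and *Klf16* were not called in either comparison of the 2 sides without pairing. With the replicate number as a block, *Klf6* was called higher on the lesioned side after acute L-DOPA. After chronic L-DOPA that fit called *Klf16* higher and *Klf13* lower. *Klf6* (chromosome 13, plus strand, 5860735 to 5869639, NM_011803) was at 6.03 ± 0.96 CPM (SD, n = 3) in the acute unlesioned and 7.94 ± 1.2 CPM in the acute lesioned group. After chronic L-DOPA it was at 5.66 ± 0.79 and 6.05 ± 0.54 CPM, and the sides overlapped under both treatments. Its lesion effects were 0.39 after acute (SE 0.12, adjusted p = 0.0545 in edgeR) and 0.10 after chronic L-DOPA (SE 0.12, adjusted p = 0.662 in edgeR). *Klf7* (chromosome 1, minus strand, 64076021 to 64168065, ENSMUST00000114086) was at 8.84 ± 0.28 and 9.03 ± 1.0 CPM on the unlesioned and lesioned side after acute L-DOPA, and at 8.33 ± 0.52 and 7.23 ± 0.55 CPM after chronic L-DOPA. The effects of *Klf7* were 0.04 and -0.20, with overlapping libraries.

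*Klf13* (chromosome 7, minus strand, 71031237 to 71083801, NM_021366) was at 35.6 ± 1.1 and 33.7 ± 3.5 CPM on the unlesioned and lesioned side after acute L-DOPA. After chronic L-DOPA it was at 36.6 ± 0.84 and 31.3 ± 2.1 CPM, without overlap of the libraries, and its log2 fold change was -0.22 (SE 0.08, adjusted p = 0.101 in edgeR). *Klf16*, first described as a regulator of dopamine receptor genes, lies on the minus strand of chromosome 10 from 80029874 to 80040066 (AK154524). Its levels were 20.9 ± 2.6 and 21.1 ± 1.6 CPM after acute and 19.8 ± 1.4 and 24.1 ± 2.1 CPM after chronic L-DOPA, in the unlesioned and lesioned striatum. The chronic libraries of *Klf16* did not overlap either, with a log2 fold change of 0.28 (SE 0.09, adjusted p = 0.0715 in edgeR).

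The replicate numbers were taken to pair the sides, and a fit with the replicate number as a block called more members. After acute L-DOPA it called 6 members, adding *Klf6* (0.40, adjusted p = 0.000611 in edgeR), *Klf15* (0.32, adjusted p = 0.00118 in edgeR) and *Klf9* (0.25, adjusted p = 0.00794 in edgeR), all higher on the lesioned side. After chronic L-DOPA it called 8 members, adding *Klf16* as higher (0.28, adjusted p = 0.0085 in edgeR) and *Klf15* (-0.32, adjusted p = 0.0127 in edgeR) and *Klf13* (-0.23, adjusted p = 0.0309 in edgeR) as lower. The block also raised the calls over all transcripts. Of 129674 transcripts tested after acute L-DOPA, 28237 were called with the block and 16684 without it. Of 127063 tested after chronic L-DOPA, 27505 were called with the block and 15295 without it. The interaction had the same 3 called members with the block, *Klf5*, *Klf10* and *Klf15*.

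Chronic treatment was set against acute treatment on each side. In the lesioned striatum *Klf6* fell by 0.39 on the log2 scale (SE 0.11, adjusted p = 0.0300 in edgeR) and *Klf7* by 0.32 (SE 0.10, adjusted p = 0.0364 in edgeR), beside *Klf2*, *Klf4* and *Klf15* above. The lesioned libraries of *Klf6* and *Klf7* did not overlap between the treatments, and those of *Klf2* did. *Klf9* (0.23), *Klf16* (0.19) and *Klf13* (-0.11) were not called. Oligodendrocyte markers moved with this comparison: 6 of 6 were lower after chronic L-DOPA, among them *Mbp* (-0.85), as were 6 of 8 microglial markers, whose sums were 84.1 to 98.8 CPM after acute and 53.2 to 67.6 CPM after chronic L-DOPA in the lesioned striatum. Of 6 astrocyte markers 3 were lower, *Gja1* (-0.60), *Aldh1l1* (-0.33) and *Slc1a3* (-0.28). Of 10 medium spiny neuron markers *Pdyn* (3.35), *Drd1a* (1.06) and *Pde10a* (0.39) were higher, and *Adora2a* (-0.60) and *Drd2* (-0.46) lower. With the oligodendrocyte markers as a covariate 2 members were called, *Klf5* and *Klf10*, and over all transcripts 3265 were higher and 1840 lower, in place of 15411 and 14287. *Klf15* was then at -0.53 (adjusted p = 0.0977 in edgeR), *Klf2* at -0.39, *Klf4* at -0.30, *Klf6* at -0.14 and *Klf7* at -0.06. The oligodendrocyte sums did not overlap between the acute lesioned (2114 to 3496 CPM) and the chronic lesioned libraries (1162 to 2098 CPM). This fit therefore cannot separate the covariate from the treatment, and the part of these cell types in the falls of the 5 members was not tested. Without acute lesioned replicate 1, without chronic lesioned replicate 1 or without chronic lesioned replicate 3, 3 members were called, and without chronic lesioned replicate 2, 8. *Klf6* and *Klf7* were each called in 2 of the 6 fits without a library, those without acute lesioned replicate 3 and without chronic lesioned replicate 2.

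In the unlesioned striatum 0 members were called between chronic and acute L-DOPA in edgeR, where 1.31% of genes were higher and 2.65% lower. At an unadjusted p under 0.05 there were 2, *Klf2* and *Klf10* (-0.27), and DESeq2 called 1, *Klf2* (-0.62, adjusted p = 0.0120). Apart from these 2 genes and *Klf4*, the log2 fold changes in the unlesioned striatum lay between -0.10 (*Klf6*) and 0.09 (*Klf5*). The plot of chronic against acute L-DOPA shows the 2 sides together. The formal test of the difference between the sides, which is also the difference of the lesion effects, called 2 members higher (*Klf5*, *Klf10*) and 1 lower (*Klf15*), where 5.23% of genes were higher and 2.07% lower.

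**Figure D4:**
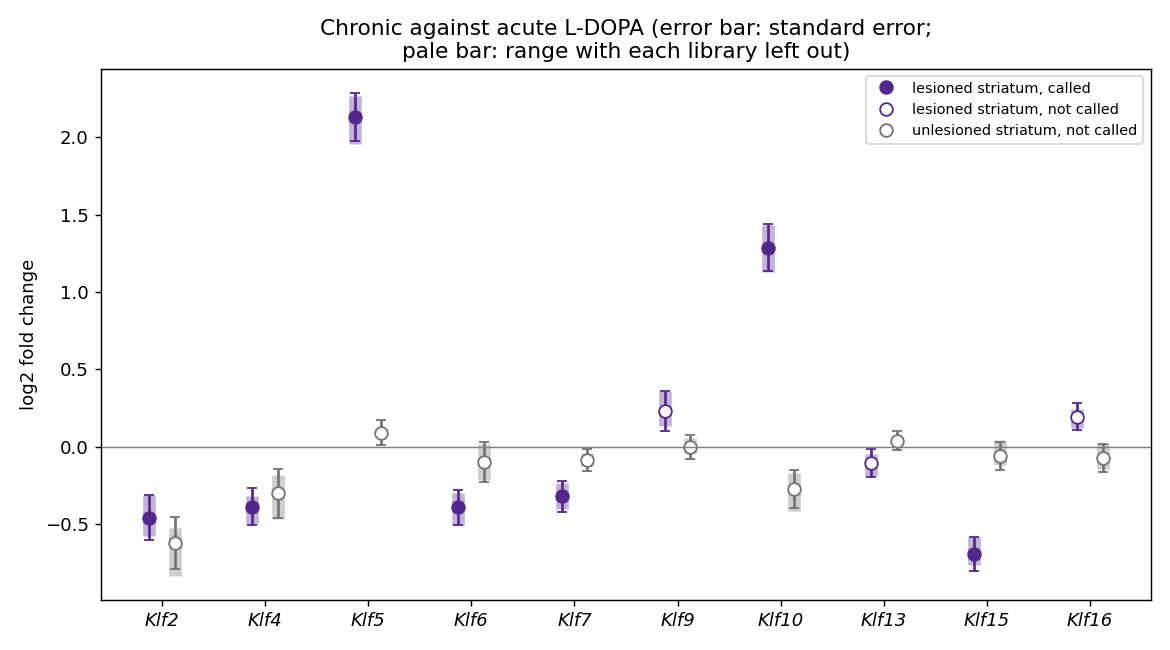
Log2 fold changes of chronic against acute L-DOPA in the lesioned (purple) and unlesioned (grey) striatum; thin bars are standard errors, pale bars the range with each library left out in turn, and filled points were called. *Klf5* at 2.13 and *Klf10* at 1.29 lie far above 0 on the lesioned side, and the 10 unlesioned values lie between -0.62 and 0.09.

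The transcripts of each gene share reads and mostly moved with the top transcript. Both transcripts of *Klf2* and all 6 of *Klf4* were called higher in each lesion comparison. Of the 6 transcripts of *Klf5*, 5 were tested: 4 were called lower after acute and 4 higher after chronic L-DOPA, and all 5 had a called interaction, from 1.92 to 2.28. All 6 transcripts of *Klf10* and all 3 of *Klf9* were called higher after chronic L-DOPA, and those of *Klf10* ranged from 1.80 to 1.85. All 4 of *Klf15* were called in the interaction. For *Klf7*, 2 of 11 transcripts were called lower in the chronic against the acute lesioned striatum, and for *Klf6* 6 of 7. In the same comparison 1 of 4 transcripts of *Klf13* was called lower and 1 of 4 of *Klf16* higher, while their top transcripts were not called.

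Of 16 other genes of the Klf and Sp family, 13 passed the filter on low counts, and *Klf1*, *Klf14* and *Klf17* did not, with means of 0.0315, 0.0508 and 0.00347 CPM. After acute L-DOPA 3 of the 13 were higher in the lesioned striatum and 0 lower, beside 9.41% and 10.5% of all genes. *Sp9*, a factor of striatal projection neuron development, went from 5.62 ± 0.30 to 10.2 ± 0.70 CPM (log2 fold change 0.86, adjusted p = 9.81e-06 in edgeR's quasi-likelihood test), *Klf11* from 1.34 ± 0.06 to 1.68 ± 0.06 CPM (0.34, adjusted p = 0.0452 in edgeR), and *Sp8*, a low gene, from 0.157 ± 0.10 to 0.459 ± 0.15 CPM (1.5, adjusted p = 0.0317 in edgeR). After chronic L-DOPA, where 10.4% of genes were higher, *Sp9* alone was called, at 5.31 ± 0.62 and 10.3 ± 0.14 CPM (0.95, adjusted p = 0.000108 in edgeR). Between the treatments in the lesioned striatum *Klf3* (-0.46, adjusted p = 0.0164 in edgeR), *Klf12* (-0.40, adjusted p = 0.0392 in edgeR) and *Klf11* (-0.37, adjusted p = 0.0401 in edgeR) were lower, 3 of 13 where 15.5% of genes were lower, and *Klf3* overlaps the antisense LOC100504048. In the unlesioned striatum and in the interaction 0 of the 13 were called in edgeR.

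A second list held 18 genes that act on Krüppel-like factors or with them, such as the kinase *Mapk7* and the Mef2 factors upstream of *Klf2* and *Klf4*, the glucocorticoid receptor *Nr3c1* upstream of *Klf9* and *Klf15*, the corepressors *Sin3a* and *Sin3b*, and the ubiquitin ligase component *Fbxw7*, which acts on Klf proteins. All 18 were tested. After acute L-DOPA 0 were higher and 5 lower in the lesioned striatum, beside 9.41% and 10.5% of all genes, with a median log2 fold change of -0.10 against -0.01. After chronic L-DOPA 1 was higher and 2 lower (10.4% and 6.89% of genes), between the treatments 1 was higher and 0 lower in the lesioned striatum (16.0% and 15.5% of genes), and none of these calls reached 1.5-fold. In the unlesioned striatum and in the interaction 0 were called in edgeR.

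For the 3 members called in both lesion comparisons, the genes with the most similar levels over the 12 libraries were sought among 12797 genes by Pearson's r of log2 CPM. The libraries of a group share their treatment, so these values are descriptions of group patterns. *Klf4* was nearest to *Siah2* (0.98), *Arc* (0.98) and *Egr4* (0.98), of which *Arc* and *Egr4* are immediate early genes of neurons. *Klf2* was nearest to LOC100503298 (0.95), *Ppp1r11* (0.95) and *Atf4* (0.95). *Klf5* was nearest to *Nceh1* (0.98), *Ccdc25* (0.98) and *E2f3* (0.97).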

How the data were processed

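RNA of striatal punches was sequenced in 12 libraries. The authors prepared TruSeq libraries, ran them on a Genome Analyzer II, mapped the reads to mm9 and deposited raw counts for each of 189660 Genomatix transcripts. The strand setting of the counting is not given in the sources used here. The submitters' processing notes name DESeq, and its comparisons (p-values and fold changes of the authors) were not used, nor were 48 other columns of per-sample values. The 296 transcripts that name no gene held 0.0485% of the counts and were left out of library totals.

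The counts were fitted with edgeR 4.0.16 (limma 3.58.1, R 4.3.3): filterByExpr by group, TMM factors, glmQLFit and glmQLFTest without a block, on the 6 libraries of each comparison and on all 12 for the interaction, with Benjamini-Hochberg adjustment over all transcripts tested and a threshold of 0.05. A SE is the log2 fold change divided by the square root of F. CPM are the deposited counts over the total times the TMM factor, and likeness used log2 CPM. The text names the 10 members, other Klf and Sp genes and partners past the threshold (partners from 1.5-fold), and the 3 genes most like each member called in both lesion comparisons. The members and all lists were chosen with earlier results of these data known. The fits were tested on simulated data. Figures were made with Python 3.11.15 and matplotlib 3.10.9.

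To check what the replicate numbers mean, the deviation of each library from its group mean was correlated over 12797 genes between libraries with 1 number. This was 0.480, 0.495 and 0.384 between the sides after acute and 0.513, 0.572 and 0.158 after chronic L-DOPA, all above the limit of 0.1 set for pairing, so the numbers were taken to pair the sides. Between libraries of different number it was -0.28 to -0.14 after acute and -0.51 to 0.154 after chronic L-DOPA, so the third chronic pair did not stand out; the study describes each mouse as its own control, whereas the labels count 12 mice. Replicates were not copies of each other (chi-square per degree of freedom 7.35 to 28.7). The total counts per library ran from 87695043 to 173116525, and reads carry no molecular identifiers. The alternatives were DESeq2 1.42.0, its size factors, no filter, a threshold of 0.01, 1 transcript per gene, the sum over transcripts, a fit on all 12 libraries, the replicate block, each library left out, and, chosen after seeing the data, the cortical or the oligodendrocyte marker sum as a covariate.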

Additional observations from a re-analysis of the deposited data

Results flagged for a closer look

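The lesion effect differed between chronic and acute L-DOPA, by the interaction test of edgeR, for 3 of the 10 members, which is why they are listed. The log2 difference was 2.04 for *Klf5*, 1.56 for *Klf10* and -0.63 for *Klf15*. *Klf5* had effects of opposite sign that were each called, *Klf10* had an effect that was called after chronic L-DOPA, and *Klf15* had effects of opposite sign, 0.32 and -0.32, of which neither was called without and both were called with the replicate block (adjusted p = 0.00118 and 0.0127 in edgeR). With the oligodendrocyte marker sum as a covariate, chosen after seeing the data, the differences were 1.90, 1.30 and -0.54, and the last was no longer called (adjusted p = 0.0706 in edgeR).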

How the results depend on the processing

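The members had 850 log2 fold changes under other settings, among them the unchanged main values set against the threshold of 0.01. Of these, 757 kept their direction and their side of the threshold, 28 passed it newly, 44 lost it, and 21 changed sign, all of members not called. Where a value moved, the cause was not tested. The number of members called after acute L-DOPA (3) became 5 with DESeq2, 5 without the filter, 5 with the oligodendrocyte covariate and 6 with the replicate block, and 3 to 5 with a library left out. After chronic L-DOPA (5) it became 8 with the replicate block and 4 to 7 with a library left out. Between treatments in the lesioned striatum (7) it became 3 at an adjusted p of 0.01, 3 with the sum over transcripts, 2 with the oligodendrocyte covariate and 3 to 8 with a library left out, and in the unlesioned striatum (0) it became 1 with DESeq2, 1 without the filter, 1 with the cortical covariate and 0 to 1 with a library left out. The interaction (3) became 2 at an adjusted p of 0.01, 2 with the oligodendrocyte covariate and 2 to 3 with a library left out. Between treatments the replicate numbers do not pair libraries (correlations of -0.08, -0.14 and 0.23 on the lesioned side), and the block there called 5 members, without *Klf2* and *Klf4*; it changed no call of the interaction. The sign changed for *Klf16* (-0.11, cortical covariate) and *Klf7* (-0.088, oligodendrocyte covariate) after acute L-DOPA, for *Klf9* (-0.10) and *Klf13* (0.042) in the lesioned, *Klf6* (0.090) in the unlesioned striatum and *Klf4* (0.040) in the interaction with the oligodendrocyte covariate, and for *Klf9* in the unlesioned striatum on top transcripts only (0.0092). With a library left out the sign also changed for *Klf16* (-0.053 to 0.11), *Klf7* (-0.048 to 0.12) and *Klf13* (-0.13 to 0.0064) after acute L-DOPA, *Klf6* (-0.014 to 0.18) after chronic L-DOPA, *Klf6* (-0.21 to 0.018), *Klf9* (-0.043 to 0.054), *Klf15* (-0.12 to 0.040) and *Klf16* (-0.15 to 0.026) in the unlesioned striatum, and *Klf4* (-0.20 to 0.077) in the interaction. Over everything tested in a fit the calls ranged from 2643 to 28237 after acute (16684), 2311 to 27505 after chronic L-DOPA (15295), 4310 to 36534 (29698) and 66 to 14377 (3366) between treatments in the lesioned and unlesioned striatum, and 951 to 15876 in the interaction (5911). The low ends 2643, 2311, 4310 and 951 are counts of genes from the sum over transcripts, with 21532, 20989, 21015 and 21988 genes tested. They are not on the scale of the transcript counts beside them. Every level of a member rests on at least 106 counts.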
